A study of Homo sapiens with 6 samples.

Results

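The genes described here encode proteins of the mitochondrial ribosome. They were chosen by name, as the protein-coding genes whose symbol in the GENCODE v44 annotation of GRCh37 starts with MRPL or MRPS followed by a number. The annotation held 78 such genes, and 76 of them (48 MRPL and 28 MRPS) were among the 57773 genes of the expression table. MRPL45 and MRPS21 were not analysed here. The measured genes lay on 21 chromosomes, with 8 on chromosome 2 and 7 each on chromosomes 1, 11 and 17. By the place of the protein in the particle, 50 belonged to the large subunit and 25 to the small subunit. The names do not always follow the subunit, since the products of MRPS30 (protein mL65) and MRPS18A (mL66) sit in the large subunit, and that of MRPS36 has been reassigned to a metabolic enzyme complex as KGD4.

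Expression was measured by polyA RNA-seq in H460, a line derived from a human non-small-cell lung carcinoma, 48 hours after transfection of 50 nM siRNA with Lipofectamine RNAiMAX. There were 3 libraries with a non-targeting ON-TARGETplus siRNA (siNT) and 3 with an siRNA against the long intergenic non-coding RNA *HKlincR1* (si*HKlincR1*), from biological replicates numbered 1 to 3 in each group. Both groups therefore carried an siRNA and the transfection reagent, and the knockdown rested on a single siRNA, taken here as si*HKlincR1*_2 from the AC2 in the library titles, in a single line. The comparison asks how the loss of this RNA alters gene expression. *HKlincR1* (ENSG00000170846) stood at 3.62, 3.47 and 3.83 RPKM (reads per kilobase of gene, scaled to library size) with siNT and at 0.563, 0.628 and 0.390 RPKM with si*HKlincR1*, a log2 difference of -2.59 (SE 0.17, limma adjusted p = 0.00245). Library totals lay between 24980280 and 30521000 reads. The epithelial keratins KRT8, KRT18 and KRT19 averaged from 29.9 to 83.6 RPKM in the group means, while EPCAM and CDH1, the other 2 of 5 epithelial markers examined, stayed at or under 0.110 RPKM in every library. The 5 NRF2 targets examined were abundant, with group means from 39.3 to 326 RPKM. The highest value in any library was 0.174 RPKM among 4 leukocyte markers (CD14), 0.0177 RPKM for the endothelial markers VWF and CDH5 and 1.23 RPKM among 4 fibroblast markers (COL1A1), of which PDGFRB reached 0.946 RPKM.

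Mitochondria keep a ribosome of their own, which translates the few respiratory chain proteins that the mitochondrial genome encodes. All of its proteins are encoded in the nucleus, made in the cytosol and imported, and they assemble on ribosomal RNAs transcribed inside the organelle. Some have counterparts in the bacterial ribosome, and others occur only in mitochondria, many of them at the surface of the particle. Among the measured genes, 30 of the large subunit and 15 of the small subunit had a bacterial counterpart, and 20 and 10 were specific to mitochondria.

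The promoters of these genes more often held the letters bound by 2 families of transcription factor than those of other expressed genes did, a description with no test. Windows of 250 bases before to 50 bases after the transcription start were found for 67 of the 76 genes in RefSeq (GRCh38.p14). A match to CCGGAAG, the core bound by ETS factors such as GABPA, occurred on either strand in 28 of the 67 windows (41.8%), compared with 20.8% of the windows of 8931 tested protein-coding genes. A match to AANATGGCG, the core bound by YY1, occurred in 18 windows (26.9%), compared with 7.61%. In 16 of these 18 genes the YY1 match lay on the gene's own strand with its first base 6 to 35 bases after the start, and the core contains an ATG. The ETS core was mostly close to the start too, with 31 of 37 matches no more than 100 bases before it. Either core was present in 42 windows, and both in 4. The other 5 motifs, each searched on both strands, were found at lower shares than in the tested genes, with the NRF1 core in 10.4% against 12.8%, GGGCGG, bound by SP1, in 61.2% against 71.9%, CCAAT, bound by NFY, in 28.4% against 37.1%, the E-box CACGTG in 7.46% against 10.4% and the TATA box TATAAA in 2.99% against 5.39%. The median GC content of the windows was 60.3%, against 65.7%. The stretches around the match are shown for genes whose values are described further on, written along the gene's own strand with the matched letters in capitals. A match is a run of letters, and binding was not measured.
MRPS30, YY1 core, chr5:44808950-44808978: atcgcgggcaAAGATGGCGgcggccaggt
MRPS9, YY1 core, chr2:105038080-105038108: tcccacagctAACATGGCGgcgccctgtg
MRPL46, YY1 core, chr15:88467362-88467390: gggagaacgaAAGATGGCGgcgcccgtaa
MRPS10, YY1 core, chr6:42217834-42217862: cgggaccggcAAGATGGCGgcgcggacag
MRPS10, ETS core, chr6:42217866-42217894: ccgctgtaaccCCGGAAGcaatcctgaga
MRPS31, ETS core, chr13:40771205-40771233: aaggcgccaggCCGGAAGcggaagagagg
MRPL58, ETS core, chr17:75012651-75012679: ggaagcgcccgCCGGAAGcagtcgcaaga
MRPL51, ETS core on the opposite strand, chr12:6493364-6493392: gcgctccaaaaCTTCCGGcaggcggaccg
MRPL3, ETS core, chr3:131502986-131503014: tgtaaaacgcaCCGGAAGtgggtccggcg

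**Figure D1:**
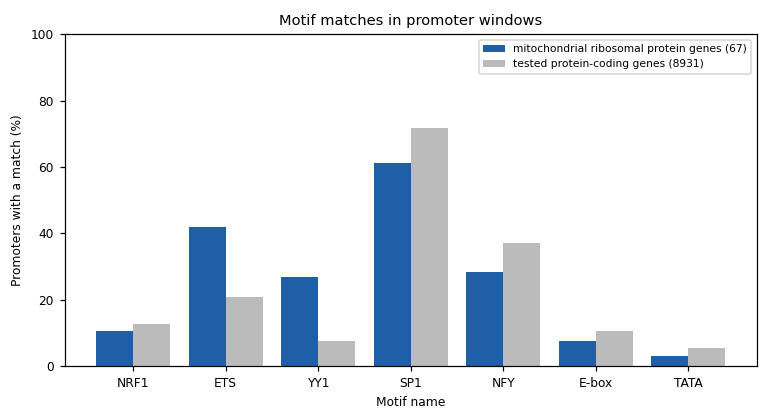
Share of promoter windows (250 bases before to 50 after the start) that hold each motif, in percent, for 67 mitochondrial ribosomal protein genes (blue) and 8931 tested protein-coding genes (grey). The ETS and YY1 bars are higher for the mitochondrial ribosomal protein genes (41.8% and 26.9%) than for the tested genes (20.8% and 7.61%), and the bars of the other 5 motifs are lower.

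The median gene of the 76 stood at 18.5 RPKM, averaged over the 6 libraries, with quartiles of 9.72 and 29.8 RPKM. This was higher than 82.1% of the 15451 genes that were tested, all averaging 0.5 RPKM or more, whose own median was 5.05 RPKM. The genes were thus not equally abundant as RNA, although their products, apart from MRPL12, which is present in several copies, are thought to occur once in each particle. The large and the small subunit had nearly the same median, 18.5 and 18.6 RPKM. In all, 53 genes lay between 10 and 60 RPKM, and the third quartile was 3.06 times the first. RPKM is scaled by gene length, here 631 to 6719 bases in the tested genes, so levels of different genes also depend on the length used. MRPL46, with 363 to 519 reads a library over 6432 bases, averaged 2.32 RPKM. MRPL54, with 261 to 368 reads over 1003 bases, averaged 11.4 RPKM. Which transcripts of each gene were present was not examined.

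MRPS34, which encodes a small subunit protein found only in mitochondria, was the most abundant, with 76.9, 78.4 and 103 RPKM in the siNT libraries and 80.5, 76.4 and 93.9 RPKM in the si*HKlincR1* libraries. The library numbered 3 was the highest of each group, and the groups overlapped. It was followed by MRPL24 (mean 60.7 RPKM), whose protein lines the exit of the peptide tunnel, MRPL3 (60.6), a core protein of the large subunit, MRPS35 (57.7), in the head of the small subunit, MRPS2 (57.6), a bacterial-type small subunit protein, and MRPL58 (57.1). MRPL58, also known as ICT1, is a peptidyl-tRNA hydrolase that became part of the central protuberance and can release stalled chains. The order of these 5 genes changed from library to library.

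At the other end, 6 genes stood below 3 RPKM. MRPL30, a large subunit gene, had 0.062, 0.068 and 0.028 RPKM with siNT and 0.036, 0.072 and 0.035 RPKM with si*HKlincR1*, and was too low to be tested. MRPS24 (mean 0.638 RPKM), whose protein lies at the mRNA entry of the small subunit, MRPL53 (1.21), MRPS17 (1.31), MRPL38 (1.77) and MRPL46 (2.32) followed. Each of the 6 shared exon bases on its own strand with another annotated gene, compared with 12 of the other 70 genes. MRPL53 shared 72.8% of its exon bases with CCDC142, MRPL38 41.1%, MRPS17 25.0%, MRPS24 23.2% with the read-through gene URGCP-MRPS24, MRPL30 11.8% and MRPL46 11.3%. Over all 76 genes, the 18 with such an overlap had a median of 10.9 RPKM, and the 58 without one had a median of 22.1 RPKM. The 18, and the 12 above, include MRPL2, MRPS5, MRPS25 and MRPS28. Their only such overlap was with genes that had no values in the expression table. Whether reads in shared bases were set aside in the counting is not given in the sources used here. The part of the overlap in the low values of the 6 genes and in these medians was not tested.

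**Figure D2:**
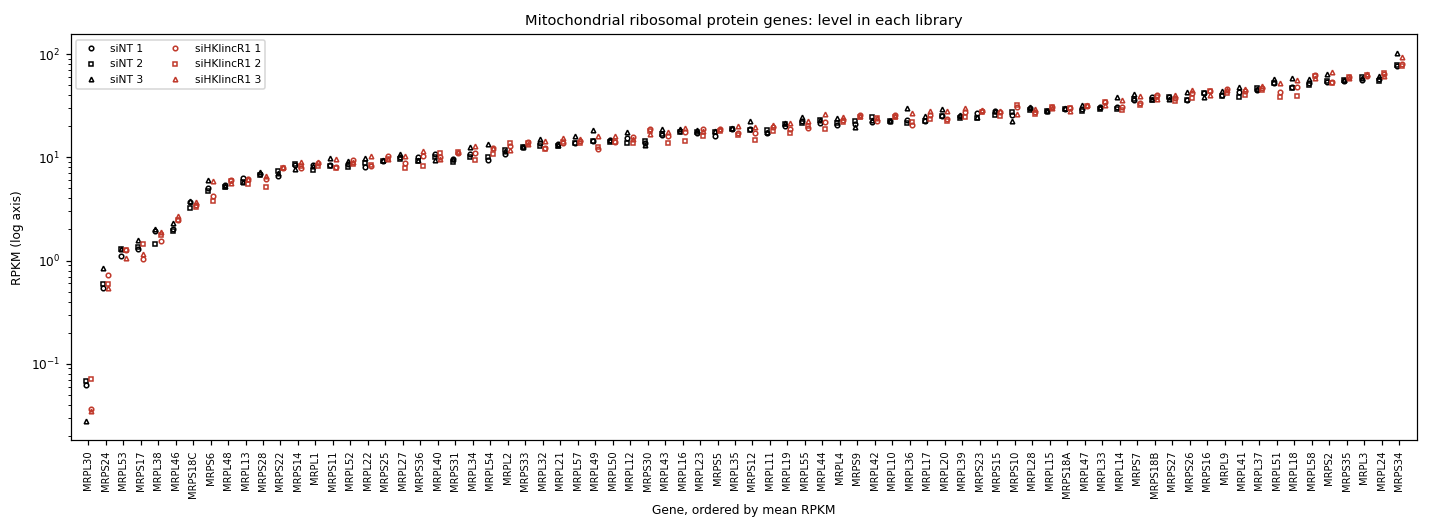
RPKM of the 76 mitochondrial ribosomal protein genes in each of the 6 libraries on a log axis, ordered by mean level (black: siNT, red: si*HKlincR1*, with circle, square and triangle for replicates 1, 2 and 3). MRPL30 is the lowest, under 0.1 RPKM in every library, and MRPS34 is the highest, while the means of the other genes lie between 0.638 and 60.7 RPKM.

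Levels were also summarised by place in the particle, without a test. The 8 genes for the central protuberance, the crest of the large subunit, had a median of 9.48 RPKM and ran from MRPL38 to MRPL58. The 5 genes for the stalk, which recruits translation factors, had a median of 15.3 RPKM, with MRPL53 the lowest and MRPL10, the anchor of the stalk, the highest at 23.8 RPKM. The 5 genes for the tunnel exit had a median of 24.6 RPKM, and the 8 genes for the head of the small subunit 18.1 RPKM. The MRPS18 paralogs also stood apart, with MRPS18B at 37.6 RPKM, MRPS18A at 29.5 RPKM and MRPS18C at 3.53 RPKM. MRPS18A and MRPS18B were classed here as specific to mitochondria, and MRPS18C as having a bacterial counterpart. In every library MRPS18C was the lowest of the 3, and MRPS18B was the highest. The values of MRPS18C, MRPS36, MRPL48 and MRPL3 are uncertain, since each has a processed pseudogene with a level of at least 35.4% of its own.

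None of the 75 tested genes was called after the knockdown, where a call required a limma adjusted p under 0.05 together with a fold over 1.5 (0 of 75, against 0.362% of all tested genes). None passed the adjusted p alone either (0.453% of all tested genes). At an unadjusted p under 0.05, 9 of the 75 were higher with si*HKlincR1* (12%, against 7.04% of tested genes) and 1 was lower (1.33%, against 9.19%). The voom fit on reads called none (0.576% of tested genes were called) and left none at the adjusted p (0.932%), with 7 higher (9.33%, against 7.19%) and 1 lower (1.33%, against 10.1%) at an unadjusted p under 0.05. With the replicate number as a block, which allows for differences shared by same-numbered libraries, none was called (1.32% of tested genes were), and MRPS30 passed the adjusted p without the fold (1 of 75, against 2.93%). Voom with the block put MRPS30, MRPS10 and MRPL51 past the adjusted p (3 of 75, 4.0%, against 13.1% of tested genes).

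The differences were small. On the log2 scale they ran from -0.29 for MRPL51 to 0.37 for MRPS30, that is from -18.0% to 28.9%, with a median of 0.016 (0.0011 over all tested genes). In all, 41 genes were higher by value (54.7%, against 50.2% of tested genes) and 34 lower (45.3%, against 49.8%). Neither end of this range passed the adjusted p. In 72 of the 75 genes the fold was under 1.2 (96.0%, against 73.8% of tested genes), and in 72 the 95% interval of the difference stayed within 1.5-fold in both directions (96.0%, against 66.5%). The 3 genes with wider intervals were MRPS17 (-0.59 to 0.17), MRPS24 (-0.62 to 0.50) and MRPS6 (-0.61 to 0.22). The median interval reached 0.20 to either side. All tested genes, used for the shares here and below, were not matched to these genes in level (median 5.05 against 18.5 RPKM). Their SE differed too (median 0.117 against 0.083), and the part of this in the shares was not tested. In bulk RNA, fewer cells expressing a gene and less RNA of it per cell cannot be told apart.

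**Figure D3:**
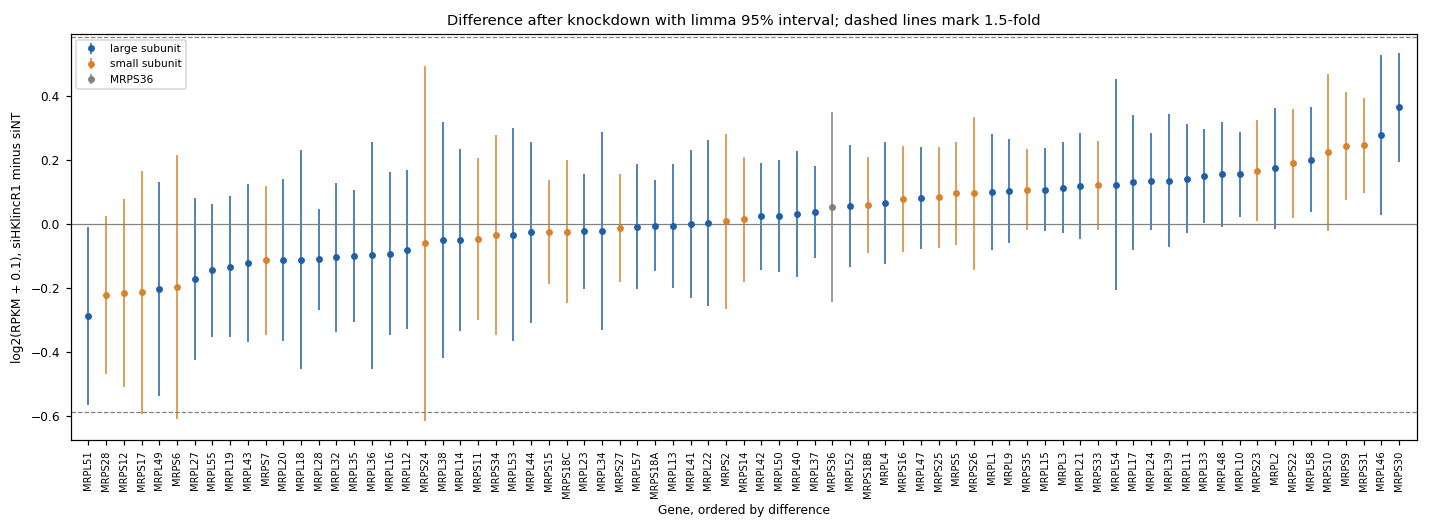
Difference in log2(RPKM + 0.1) between si*HKlincR1* and siNT for the 75 tested genes, ordered by size, with limma 95% intervals (blue: large subunit, orange: small subunit, grey: MRPS36; n = 3 libraries a group). The points run from -0.29 (MRPL51) to 0.37 (MRPS30), and only the intervals of MRPS17, MRPS24 and MRPS6 cross a dashed line, which marks 1.5-fold.

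MRPS30 (ENSG00000112996, chr5:44809049-44820530 on the plus strand, GRCh37) had the highest difference. Its level was 13.9, 14.3 and 13.2 RPKM with siNT and 18.7, 18.2 and 16.7 RPKM with si*HKlincR1*. Every si*HKlincR1* library lay above every siNT library. The log2 difference was 0.37 (95% interval 0.20 to 0.54), with a limma adjusted p of 0.107 without the block and 0.0444 with it. Across pairs of same-numbered libraries it was 0.43, 0.34 and 0.33. The product, mL65, has no bacterial counterpart.

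MRPS31 and MRPS9 encode proteins of the head of the small subunit, the second of which reaches towards the transfer RNA in the peptidyl site. MRPS31 (ENSG00000102738, chr13:41303264-41345326 on the minus strand, GRCh37) had 9.56, 9.10 and 9.67 RPKM with siNT and 11.1, 11.2 and 11.4 RPKM with si*HKlincR1*, and its log2 difference was 0.25 (0.10 to 0.40, adjusted p = 0.178). MRPS9 (chr2:105654527-105716418, GRCh37) had 21.0, 22.8 and 19.8 RPKM and 25.6, 24.6 and 25.0 RPKM, a log2 difference of 0.25 (0.08 to 0.41, adjusted p = 0.213). In both genes the si*HKlincR1* libraries were close to one another and all above the siNT libraries. Another head gene, MRPS10 (mean 27.5 RPKM), had 25.9, 27.4 and 22.7 RPKM and 30.8, 31.9 and 26.2 RPKM, with a log2 difference of 0.22 (adjusted p = 0.335). Its groups overlapped, but within each pair of same-numbered libraries the si*HKlincR1* library was higher, by 0.25, 0.22 and 0.20. Without siNT replicate 3 the difference of MRPS10 was 0.15. Neither MRPS31, MRPS9 nor MRPS10 passed the test.

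In the central protuberance, MRPL58 had 52.7, 49.8 and 56.9 RPKM with siNT and 62.3, 61.9 and 59.1 RPKM with si*HKlincR1*, a log2 difference of 0.20 (0.04 to 0.37, adjusted p = 0.257). MRPL46, of the same crest, had 2.03, 1.92 and 2.30 RPKM and 2.49, 2.46 and 2.70 RPKM, a log2 difference of 0.28 (0.03 to 0.53, adjusted p = 0.279). The groups did not overlap in either gene, though the third pair of MRPL58 differed by only 0.05. MRPL46 lies head to head with MRPS11, a small subunit gene whose start is 63 bp away, and MRPS11 had a log2 difference of -0.05.

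Of the genes with the lowest differences, MRPL51 (ENSG00000111639, chr12:6601052-6603007 on the minus strand, GRCh37), a large subunit gene specific to mitochondria, had 52.4, 52.0 and 57.8 RPKM with siNT and 42.8, 38.5 and 52.6 RPKM with si*HKlincR1*. The third si*HKlincR1* library lay within the siNT range. The log2 difference was -0.29 (-0.57 to -0.01, adjusted p = 0.302), and -0.41 without that library, with an adjusted p of 0.0387 (MRPS30 passed too, 2 of 75, against 7.53% of tested genes). MRPS28, a small subunit gene, had 6.91, 6.70 and 7.17 RPKM and 6.12, 5.13 and 6.63 RPKM, a log2 difference of -0.22 (adjusted p = 0.340), and was the only gene with all si*HKlincR1* libraries under all siNT libraries. Another gene on the same strand, which had no values in the expression table, shared 35.8% of the exon bases of MRPS28. MRPS12, whose protein forms part of the decoding centre, had a log2 difference of -0.21, MRPS17 -0.21, MRPL49 -0.20 and MRPS6 -0.20, with adjusted p between 0.414 and 0.585, and their groups overlapped. These values moved by more than 1.5 times with single libraries. MRPL49 ran from -0.085 without siNT replicate 3 to -0.33 without si*HKlincR1* replicate 3, MRPS6 from -0.070 without si*HKlincR1* replicate 2 to -0.38 without replicate 3, and MRPS12 from -0.11 to -0.32 without the same libraries. MRPS17 ran from -0.12 without si*HKlincR1* replicate 1 to -0.34 without replicate 2. Without si*HKlincR1* replicate 2, MRPS28 stood at -0.12 and MRPL51 at -0.19.

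**Figure D4:**
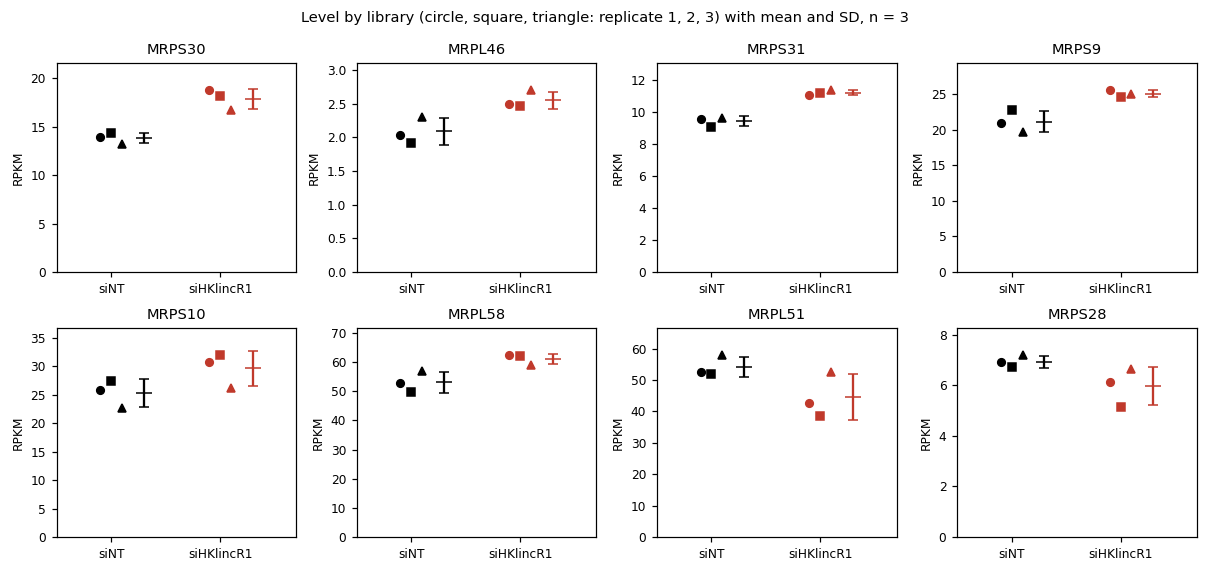
RPKM in each library for the 6 genes with the highest and the 2 with the lowest difference, with the mean and SD of each group beside the points (n = 3; circle, square and triangle for replicates 1, 2 and 3; each axis starts at 0). The groups do not overlap in MRPS30, MRPL46, MRPS31, MRPS9, MRPL58 and MRPS28, and they overlap in MRPS10 and in MRPL51, whose si*HKlincR1* library 3 stood at 52.6 RPKM.

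Counting genes without overlap between the groups gave 18 that were higher with si*HKlincR1* (24.0%, against 10.1% of all tested genes) and 1 that was lower (1.33%, against 11.9%). Besides the genes above, the 18 held MRPS22 (log2 difference 0.19), a small subunit gene mutated in a severe mitochondrial disease, MRPL2 (0.18), near the peptidyl transferase centre, MRPS23 (0.17), MRPL10 (0.16), MRPL48 (0.16), MRPL33 (0.15) and MRPL24 (0.13), along with MRPS33, MRPL21, MRPL3, MRPL15, MRPS35 and MRPS25. MRPL2 shared 29.2% of its exon bases on its own strand with a gene that had no values in the expression table. An exact two-sided permutation test gave p = 0.10 for a single gene without overlap, the smallest p that 3 libraries against 3 allow. With all 3 pairs of same-numbered libraries in one direction, 28 genes were higher (37.3%, against 24.0% of tested genes) and 16 lower (21.3%, against 25.2%).

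By class, the large subunit had 26 genes higher and 23 lower (median log2 difference 0.0038) and the small subunit 14 and 11 (0.016). Genes specific to mitochondria had 20 higher and 10 lower, with a median of 0.048 and 10 of 30 higher without overlap between groups (10.1% of all tested genes were). Genes with a bacterial counterpart had 20 higher and 24 lower, with a median of -0.021 and 8 of 44 higher and 1 of 44 lower without overlap (10.1% and 11.9% of all tested genes). The 10 mitochondria-specific genes of the small subunit had 8 higher and 2 lower (MRPS27 and MRPS34), with a median of 0.10. Of the 10, 6 were higher without overlap (MRPS22, MRPS23, MRPS25, MRPS31, MRPS33 and MRPS35), again against 10.1%. The 8 genes of the small subunit head had 6 higher and 2 lower and a median of 0.11. MRPS31, MRPS33 and MRPS35 belong to both of these classes. The summed level of the head genes was 169, 174 and 170 RPKM with siNT and 183, 183 and 185 RPKM with si*HKlincR1*. In every other class described here the sums overlapped between the groups. The whole small subunit had 585, 586 and 630 RPKM with siNT and 615, 591 and 647 RPKM with si*HKlincR1*. The central protuberance had 5 higher and 3 lower, the stalk 3 and 2, and the tunnel exit 4 and 1. These counts describe the classes, and the differences between classes were not tested.

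The libraries numbered 3 shared a shift in these genes. In the third siNT library 50 of the 75 genes were higher than in both others of the group (38.5% of all tested genes were), by a median of 0.093 on the log2 scale (-0.0065 over all tested genes). In the third si*HKlincR1* library the same held for 48 genes (39.1% of all tested genes), with a median of 0.12 (-0.0019). A total of 48 genes stood above the mean of replicates 1 and 2 in both groups, against 32.2% of tested genes. The summed level of the 76 genes was 1674, 1662 and 1813 RPKM with siNT and 1743, 1669 and 1844 RPKM with si*HKlincR1*, so that the third library was the highest of each group. Among the genes with the clearest shift were MRPS6 (0.32 in siNT and 0.55 in si*HKlincR1*), MRPL49 (0.35 and 0.38) and MRPL36 (0.43 and 0.34), whereas MRPS10 stood lower in the libraries numbered 3 of both groups (-0.23 and -0.26). Across the 75 genes the shift in one group and that in the other had a Pearson r of 0.434 and a Spearman rho of 0.482, a description over genes of the same libraries, which are not independent replicates. With both libraries numbered 3 left out, a choice made after these deviations were seen, no gene was called (0 of 75, against 2.82% of tested genes), and MRPS30 passed the adjusted p (0.0363, 1 of 75, against 6.28%).

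**Figure D5:**
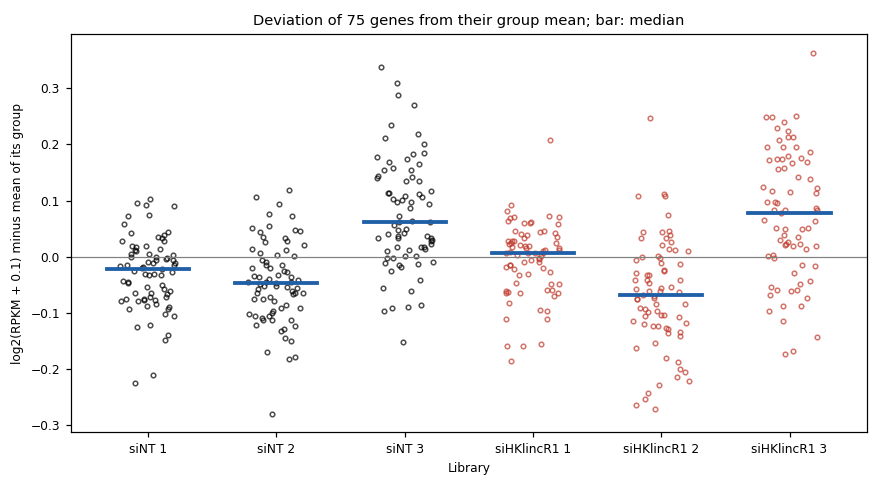
Deviation of each of the 75 tested genes from the mean of its own group, in log2(RPKM + 0.1), by library (black: siNT, red: si*HKlincR1*; blue bar: median). The median is above 0 in the third library of each group, at 0.062 and 0.079, and under 0 in the second, at -0.047 and -0.068.

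Complementarity to the siRNA was looked for in the 3′ UTRs, since the bases 2 to 8 of a guide strand, its seed, can reduce transcripts with a matching site. The sense strand of si*HKlincR1*_2 as given in the labels and the guide derived from it are shown with the seed in capitals, followed by 29 bases around each site found in these genes, with the site GTGTGCT in capitals, from the canonical transcripts in GENCODE v44.
si*HKlincR1*_2, sense: gaaguauacucgugugcuu
si*HKlincR1*_2, guide: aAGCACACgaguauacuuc
MRPL10, 3′ UTR: ccaccatccagGTGTGCTtggatgttagt
MRPL28, 3′ UTR: atcctggtttcGTGTGCTgcccatgcacc
MRPL42, 3′ UTR: agactacacatGTGTGCTaccatgcctgg
MRPS23, 3′ UTR: tcatggattgaGTGTGCTggagacagtta

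The site occurred in 4 of the 76 genes (5.26%), compared with 14.1% of 10765 tested genes with a 3′ UTR. The 3′ UTRs of the mitochondrial ribosomal protein genes were also shorter, with a median of 458.5 nt against 1366 nt. The log2 difference was 0.16 for MRPL10, -0.11 for MRPL28, 0.03 for MRPL42 and 0.17 for MRPS23, so 1 of the 4 genes was lower with si*HKlincR1* and none passed the adjusted p.

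Other genes of the pathway were examined in 5 lists written from their known roles. None of their tested genes was called without the block (0.362% of all tested genes were). Of the 5 further ribosomal proteins that the naming rule leaves out, 4 were higher and 1 lower, with a median log2 difference of 0.087. PTCD3, a small subunit protein with RNA-binding repeats, had 0.19, DAP3, a GTP-binding small subunit protein, 0.09 and GADD45GIP1, of the large subunit, 0.09. Of 23 assembly factors 17 were higher and 6 lower. METTL15, a ribosomal RNA methyltransferase, had a log2 difference of 0.38 (adjusted p = 0.228) and TFB1M, another, 0.37. GTPBP10, a GTPase of large subunit assembly, had 0.33 (adjusted p = 0.294). TFB1M stood at 6.51, 5.92 and 5.27 RPKM with siNT and 8.44, 7.67 and 6.80 RPKM with si*HKlincR1*, without overlap, at an adjusted p of 0.227 without the block and 0.0492 with it.

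Of 14 translation factors 12 were higher and 2 lower, with a median of 0.087. In 7 of the 14 the si*HKlincR1* libraries were higher without overlap, against 10.1% of all tested genes. MTIF2, the initiation factor that places the initiator transfer RNA, had 34.5, 35.9 and 30.8 RPKM with siNT and 43.8, 46.6 and 36.7 RPKM with si*HKlincR1*. The log2 difference was 0.32, with an adjusted p of 0.243 without the block and 0.0472 with it, and each si*HKlincR1* library lay above the siNT libraries. GUF1, a GTPase of elongation, had 0.20 (adjusted p = 0.313) and MTRFR, a rescue factor, 0.19 (adjusted p = 0.374). The elongation factor TUFM, the most abundant of the list, averaged 144 ± 5.76 RPKM in the siNT libraries and 149 ± 6.18 RPKM after the knockdown (SD, n = 3). Of 13 genes for the upkeep and transcription of mitochondrial DNA and the handling of its RNA, 8 were higher and 5 lower. SUPV3L1, a helicase of RNA decay, had the largest difference, with 17.2, 16.8 and 17.5 RPKM and 22.7, 21.6 and 20.8 RPKM, a log2 value of 0.33 that missed the threshold in both fits (adjusted p = 0.101 and 0.0522). POLG2, the accessory subunit of the mitochondrial DNA polymerase, had 0.31 (adjusted p = 0.328), and LRPPRC, which stabilises mitochondrial mRNAs, 0.21 (adjusted p = 0.196).

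Among 8 tested regulators of nuclear genes for mitochondria, the factors that bind the promoter cores above had low differences, with 0.015 for GABPA, 0.14 for its partner GABPB1 and -0.15 for YY1. YY1 averaged 18.4 ± 0.703 RPKM in the siNT libraries and 16.6 ± 0.935 RPKM after the knockdown (SD, n = 3), its groups did not overlap, and the adjusted p was 0.342. Genes with an ETS match had a median log2 difference of 0.057 (27 tested genes) and those without one 0.0038 (39 genes), and the medians with and without a YY1 match were 0.032 (18 genes) and -0.0094 (48 genes). MYC, a growth regulator, had 111, 114 and 93.5 RPKM with siNT and 185, 187 and 116 RPKM with si*HKlincR1*. The third library was the lowest of each group, and the log2 difference was 0.59. The limma adjusted p was 0.237 without the block and 0.0493 with it. With the block MYC was called, as 1 of 63 tested pathway genes, against 1.32% of all tested genes.

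The 13 protein-coding genes of the mitochondrial genome, which this ribosome translates, were all higher by value with si*HKlincR1*, by a median of 0.26, and none of the 13 passed the adjusted p without the block (0.453% of all tested genes did) and 1 with it (2.93%). Their summed level was 42377, 39027 and 44835 RPKM with siNT and 46276, 47555 and 59150 RPKM with si*HKlincR1*. The genes for proteins of the cytosolic ribosome had a median level of 81.0 RPKM and a median log2 difference of 0.064. Of 83 tested, 69 were higher and 14 lower (50.2% and 49.8% of all tested genes were). Across pairs of same-numbered libraries their median was 0.074, 0.11 and -0.015. In all 3 pairs 25 were higher and 6 lower (24.0% and 25.2% of all tested genes were). None of them was called (0.362% of all tested genes were).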

How the data were processed

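Strand-specific polyA libraries were sequenced as paired 75 bp reads. The authors counted reads on Ensembl 74 gene models (GRCh37) with Rsubread, and the values were deposited by the authors as RPKM, one column per library. CASAVA 1.8.2 and featureCounts are named in the submitters' processing notes. Neither the aligner nor whether counting was stranded is given in the sources used here, so genes that overlap or have near-identical copies are uncertain.

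Library totals and reads were worked back from the unrounded RPKM values. All 152380 nonzero values came out whole within 0.001 reads. Each tested mitochondrial ribosomal protein gene had at least 39 reads in every library, *HKlincR1* had 27 to 245, and 72 of the 76 had at least 100 reads in every library.

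The 15451 genes averaging 0.5 RPKM or more were tested on the scale of log2(RPKM + 0.1) by limma (version 3.58.1, R 4.3.3), with a mean-variance trend and Benjamini-Hochberg adjustment over all of them. Fold changes are on this scale. The limma fits without and with the replicate block were also run on simulated reads. Those reads had the same setting for spread between libraries in every gene. They held no shift shared by same-numbered libraries, so they were no check of the block. The study's methods used edgeR on counts, which was not used here. The deviations of same-numbered libraries from their group means correlated over all tested genes (r = 0.142, 0.137 and 0.266). Differently numbered libraries had a mean of -0.089, and among them siNT 1 with si*HKlincR1* 2 had 0.113. Deviations cancel within a group, so the means of differently numbered libraries here and below largely follow from the same-numbered values. They are no separate evidence of pairing. Over the mitochondrial ribosomal protein genes alone the same-numbered libraries had 0.069, 0.341 and 0.434 (mean of differently numbered libraries -0.131). There, 2 differently numbered pairs exceeded the 0.069 of replicate 1: siNT 2 with si*HKlincR1* 1 (0.242) and siNT 1 with si*HKlincR1* 2 (0.167). In these genes the numbers therefore did not set replicates 1 and 2 apart. Each same-numbered value over all genes was above 0.1, so the replicate numbers from the sample labels were taken to pair the libraries. A fit with the replicate as a block was made beside the unpaired one. Alternatives changed the pseudocount, filter, scaling, trend, fold and library set, and voom was run on the reads.

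The members and lists were chosen with earlier results of these data known. Genes named are those past a test in either fit, the largest differences, the highest and lowest levels, members without overlap between groups, the MRPS18 paralogs and examples of each structural class. The pathway genes named are those past a test and the largest differences of each list. TUFM, GABPA, MRPS11, MRPS33, MRPL21, MRPL15, MRPS25 and the genes of the third-library shift were named after their values were seen. MRM1 was not analysed here. Promoters were from RefSeq, and gene positions and 3′ UTRs from GENCODE 44.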

Additional observations from a re-analysis of the deposited data

How the results depend on the processing

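No mitochondrial ribosomal protein gene was called under any of the alternatives, which covered other pseudocounts, filters, scalings, variance models and folds (1.2 in place of 1.5), voom, the replicate block and each library left out. Genes at an adjusted p under 0.05 numbered 0 as reported, 1 with the replicate block (MRPS30), 3 with voom and the block (MRPS30, MRPS10 and MRPL51), 1 with both libraries numbered 3 left out and 0 to 2 with 1 library left out, where the 2 (MRPS30 and MRPL51) came without si*HKlincR1* replicate 3. Called pathway genes numbered 0 as reported and 1, MYC, with the replicate block, with voom and the block and with both libraries numbered 3 left out, and 0 to 1 with 1 library left out, the 1 being MYC without si*HKlincR1* replicate 3. The median log2 difference of the 75 genes was 0.016 as reported, 0.031 after quantile normalization, 0.032 without both libraries numbered 3 and 0.0055 to 0.061 with 1 library left out. The split of 41 higher and 34 lower became 45 and 30 after median centring, 51 and 24 without siNT replicate 3 and 53 and 22 without si*HKlincR1* replicate 2. The direction changed under at least 1 of the 17 alternatives (16 for genes removed by the stricter filter) in 27 of the 75 genes, none with a difference beyond 0.11 in either direction, and held in 48. Of the pathway genes, 24 of 63 changed direction. MRPL42, MRPS11 and GABPA, whose differences are printed, were among those that changed, whereas MRPS30, MRPL46, MRPS31, MRPS9, MRPS10, MRPL58, MRPL51, MRPS28, MRPS12, MRPS17, MRPL49 and MRPS6 were not. The log2 difference of MRPS30 stayed between 0.33 and 0.41 and its adjusted p between 0.00659 and 0.404 over 17 alternatives. Apart from MYC, the block changed no call of the named genes. MRPS30, TFB1M and MTIF2 passed the adjusted p with the block (0.0444, 0.0492 and 0.0472) but not in the fit as reported. Fits with both libraries numbered 3 left out and voom with the block were chosen after seeing the data, and the causes of these changes were not tested. With 3 libraries a group, the median 95% interval, not adjusted for the number of genes, reached 0.20 to either side on the log2 scale. Smaller differences in a single gene were mostly not detectable. Larger ones could also miss the adjusted p, such as that of MRPS30 (0.37, limma adjusted p = 0.107 without the block).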

Other observations

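Pseudogenes of these genes, most of them processed, were also listed. Of 64 pseudogene rows whose parent is 1 of 33 mitochondrial ribosomal protein genes, 25 were at 0 in every library and 17 averaged at least 0.5 RPKM. The median row stood at 0.344% of its parent, and 9 exceeded 10%. MRPL3P1 averaged 21.4 RPKM (35.4% of MRPL3). MRPS36P1 averaged 20.9 RPKM (214% of MRPS36) and MRPS18CP7 8.76 RPKM (248% of MRPS18C). How reads that match both a gene and its pseudogene were assigned is not given in the sources used here, so the levels of these parents and their pseudogenes are uncertain.

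Of the 76 genes, 17 (22.4%) had the start of another protein-coding gene within 1000 bp upstream on the other strand, compared with 12% of 10866 tested protein-coding genes. Several partners also serve mitochondria or translation. MRPL36 starts 41 bp from NDUFS6 and MRPL47 41 bp from NDUFB5, both genes of respiratory complex I. MRPL49 starts 6 bp from FAU, which encodes a cytosolic ribosomal protein, and MRPS12 181 bp from SARS2, the mitochondrial seryl-tRNA synthetase. Partners of one start region differed widely in level. MRPL18 averaged 49.6 RPKM and its partner TCP1, a subunit of the cytosolic chaperonin, 85.5 RPKM, whereas MRPL10 averaged 23.8 RPKM and its partner LRRC46 0.287 RPKM.

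Gene length and level were negatively related across the 75 tested genes (Spearman rho -0.414, a description over genes of the same libraries, in which RPKM itself is divided by length).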
